A study of Mus musculus with 4 samples.

Results

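The integrated stress response of the islet was followed through 9 genes, those of the transcription factors ATF4 and CHOP and of 7 of their targets and partners, namely Atf4, Ddit3, Trib3, Chac1, Asns, Nupr1, Ddit4, Ppp1r15a and Sesn2. They were taken by symbol from the 32285 genes of single-cell RNA sequencing matrices, and all 9 were found. The symbol Ddit3 stood for 2 overlapping gene models on chromosome 10, of which the second held 0 unique molecular identifiers (UMIs, each standing for 1 captured transcript molecule) in all 4 libraries. The values are those of the first, and since the counting leaves out reads that match both models, they may be too low by an amount that was not measured here. Pancreatic islets of male mice were measured with droplet sequencing of transcript 3′ ends in 4 libraries. WT SCD and Pax4 HH SCD islets came from mice aged 12 weeks on standard chow, and WT HFD and Pax4 HH HFD islets from mice aged 16 weeks after 4 weeks of a high-fat diet. Pax4 HH mice were homozygous for the R200H substitution knocked into Pax4, the counterpart of R192H in human PAX4, and Pax4 encodes a transcription factor needed for β cell formation. Each group was 1 library of islets pooled from 2 to 3 mice and dissociated with trypsin, so genotype and diet comparisons had no replicate and no test, diet could not be told apart from age, and neither could be told apart from the library.

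ATF4 is translated when kinases that sense unfolded proteins, amino acid shortage, haem shortage or double-stranded RNA phosphorylate eIF2α and slow general protein synthesis. It activates genes for amino acid supply, glutathione turnover and mTORC1 control, and with persistent stress it induces CHOP, the product of Ddit3. CHOP in turn activates genes tied to cell death and to the recovery of translation, among them Ppp1r15a, whose product GADD34 brings a phosphatase back to eIF2α. β cells load their endoplasmic reticulum with proinsulin and are known to be sensitive to this pathway.

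ATF4 and C/EBP family proteins bind composite elements with the core TGATGNAA. RefSeq promoter windows (GRCm38.p6) were available for 9 of 9 genes, and only their 250 bases before the transcription start were searched. The letters stood on either strand in 3 of them, those of Chac1, Asns and Nupr1. Of all 32851 windows, searched over the same 250 bases, 3.45% held the core. The 3 stretches are shown because they separate these genes from the other 6, with the 8 letters of the core in capitals and each sequence written 5′ to 3′ on the strand of its gene. A match is a description of letters and was not tested as a binding site.
Chac1: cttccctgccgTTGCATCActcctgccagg
Asns: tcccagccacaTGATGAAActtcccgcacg
Nupr1: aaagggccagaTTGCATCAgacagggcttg
The Chac1 stretch (chr2:119351038-119351067, plus strand) and the Nupr1 stretch (chr7:126625562-126625591, minus strand) read the core on the opposite strand, 193 to 186 and 110 to 103 bases before the start. The Asns stretch (chr6:7693214-7693243, minus strand) reads it directly, 23 to 16 bases before the start. The Asns and Nupr1 stretches both lie inside the annotated span of their own gene, since longer transcript models start further upstream.

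The matrices held 22218 barcodes, between 4665 and 7123 per library, and 68011082 to 104810105 UMIs per library. After filters on mitochondrial share, depth and doublets 12404 cells were kept, 37.7% of the barcodes in WT HFD and 59.4% to 66.1% in the others. Cells were grouped by their dominant hormone, which gave 7912 insulin, 1536 glucagon, 928 somatostatin and 491 polypeptide cells. The grouping was checked against markers: 6 β cell markers summed to between 38710 and 60993 CPM (UMIs of a gene per 1000000 UMIs of the same cells) in insulin cells and to between 1194 and 2474 in glucagon and polypeptide cells. Most of the sum in insulin cells was Iapp, at 37453 to 60162 CPM. Somatostatin cells held 25273 to 30312, a list that includes Iapp. Endothelial, stromal and exocrine markers summed to at most 5.6, 2.8 and 2.3 CPM in insulin cells, leukocyte markers to 42.5 to 53.3, and α cell markers, nearly all of it Ttr, to 1301, 1347, 1348 and 2745 in WT SCD, Pax4 HH SCD, WT HFD and Pax4 HH HFD. No barcode of any library held a UMI of Pax4 (0 in each of 4), which leaves its RNA unable to check the genotypes. Pairs of libraries shared 6 to 11 barcodes, at most 0.236% of the smaller library.

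Set against insulin cells, the other endocrine cells of the same libraries had less of most of these transcripts, and Nupr1 differed most. UMIs were summed per library and hormone group, and edgeR's quasi-likelihood test compared the groups over the 4 libraries with the library as a block. In glucagon cells 1 of 8 tested genes was higher and 6 were lower, where 29.2% of 11819 genes were higher and 31.4% lower. In somatostatin cells 1 was higher and 7 lower (29.4% and 30.2% of all genes), and in polypeptide cells 1 was higher and 7 lower (24.2% and 27.4%). In glucagon, somatostatin and polypeptide cells the median log2 fold change over the 8 genes was -1.46, -2.18 and -1.80, beside -0.01, 0.00 and -0.03 over all tested genes. The fit was scaled by TMM, which centres the bulk of genes. Insulin transcripts took a median of 54.5% to 56.0% of the UMIs of an insulin cell, and when total UMIs were used as the scale the median of all genes moved to 0.58, 0.98 and 0.28. The split of all calls then became 7833 higher and 1337 lower in glucagon cells, 9688 and 668 in somatostatin cells and 4844 and 1742 in polypeptide cells, in place of 3455 and 3706, 3469 and 3564, and 2861 and 3242. Ddit3, Chac1, Asns, Nupr1 and Ddit4 were lower and Ppp1r15a higher in all 3 groups on both scales, past the threshold each time, and Atf4 and Sesn2 depended on the scale as given below. Levels given below as CPM are on the total UMI scale, and fold changes between hormone groups on the TMM scale.

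**Figure D1:**
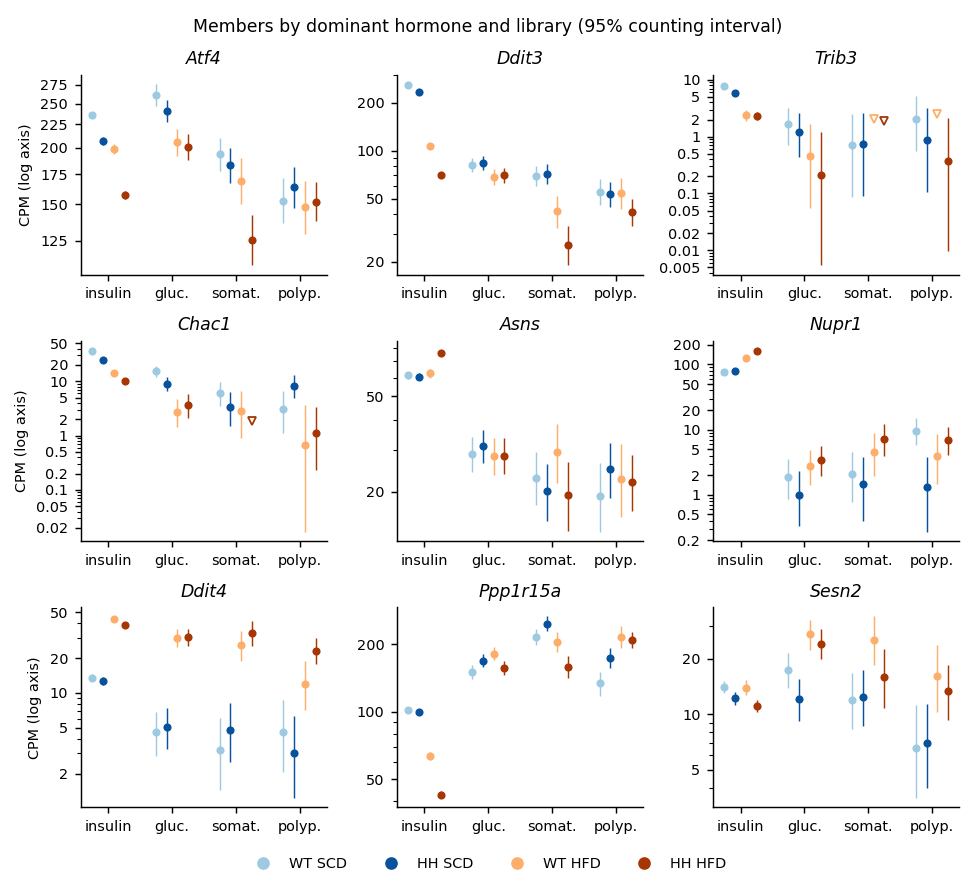
CPM of each gene (log axis) in insulin, glucagon (gluc.), somatostatin (somat.) and polypeptide (polyp.) cells, 1 point per library with its 95% counting interval; open triangles mark the upper limit where no UMI was found. Nupr1 stands at 76.3 to 164 CPM in insulin cells and at 9.63 or less in the others, while Ppp1r15a is lowest in insulin cells of every library.

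Nupr1 (chr7:126623249-126630861, minus strand, GRCm38) encodes a small stress-induced chromatin protein that acts with ATF4 and CHOP. In insulin cells it stood at 76.3 CPM in WT SCD, 78.7 in Pax4 HH SCD, 127 in WT HFD and 164 in Pax4 HH HFD. Glucagon cells held 1.86, 1.01, 2.75 and 3.41 CPM in the same order, somatostatin cells 2.12, 1.47, 4.5 and 7.16, and polypeptide cells 9.63, 1.31, 4.0 and 6.83. The insulin cell values lay far above those of the 3 other hormone groups without overlap. The fold changes were -6.23 (SE 0.19, edgeR adjusted p = 9.76e-18), -5.92 (SE 0.21, 1.05e-16) and -4.71 (SE 0.20, 1.01e-14). Outside the hormone groups, stromal cells held 224 to 414 CPM and cells with leukocyte markers 44.5 to 145. As a share of its level in insulin cells it was 1.28% to 2.44% in glucagon and 1.86% to 4.38% in somatostatin cells, beside 1.32% to 2.56% and 1.26% to 2.77% for the β cell gene Mafa and 1.42% to 2.49% and 1.59% to 3.39% for the β cell gene Ucn3. In polypeptide cells it was 1.66% to 12.6%, beside 1.46% to 2.05% for Mafa and 0.709% to 2.88% for Ucn3. The β cell gene Nkx6-1 stood at 7.65% to 11.2% in glucagon, 1.95% to 5.17% in somatostatin and 29.3% to 38.1% in polypeptide cells. Free RNA from insulin cells can give such shares in every droplet, and its part in the remaining Nupr1 was not tested.

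Ddit3 (chr10:127290774-127296288, plus strand) encodes CHOP. Its insulin cell levels were 259, 233, 106 and 69.8 CPM in WT SCD, Pax4 HH SCD, WT HFD and Pax4 HH HFD. Glucagon cells held 81.5, 83.4, 68.2 and 70.3 CPM, somatostatin cells 69.5, 71.1, 41.6 and 25.6, and polypeptide cells 55.2, 53.5, 54.1 and 41.0. The level was thus several-fold higher in insulin cells on SCD, but in Pax4 HH HFD the insulin cells stood at the level of the glucagon cells. Fold changes were -1.56 (SE 0.17, edgeR adjusted p = 5.51e-08), -2.57 (SE 0.19, 9.67e-11) and -1.89 (SE 0.20, 3.34e-08). Atf4 (chr15:80255184-80257541, plus strand), the upstream factor, is controlled mainly through translation, so its transcript does not measure its activity. It varied less: 236, 207, 199 and 157 CPM in insulin cells, 262, 241, 205 and 201 in glucagon cells, 193, 183, 169 and 125 in somatostatin cells and 153, 164, 148 and 152 in polypeptide cells. Per total UMIs glucagon cells thus held more Atf4 than insulin cells in every library (0.19 on the log2 scale, edgeR adjusted p = 0.036), whereas the TMM scale gave -0.40 (SE 0.07, 7.90e-05), so the direction of that difference depends on the scale. Somatostatin and polypeptide cells were lower on the TMM scale, by -1.23 and -0.66 (edgeR adjusted p = 6.50e-12 and 3.07e-07), and on total UMIs by -0.25 and -0.35.

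Among the hormone groups the metabolic targets and Trib3 were also highest in insulin cells. Asns (chr6:7675169-7693254, minus strand) encodes asparagine synthetase and stood at 61.3, 60.5, 62.5 and 76.0 CPM in insulin cells, against 28.2 to 31.0 in glucagon, 19.4 to 29.2 in somatostatin and 19.3 to 24.8 in polypeptide cells. The groups did not overlap, and the fold changes were -1.75, -2.49 and -1.87 (edgeR adjusted p = 7.44e-13, 2.88e-14 and 1.90e-11). Chac1 (chr2:119351229-119354381, plus strand) encodes an enzyme that degrades glutathione. It held 35.9, 24.1, 14.4 and 10.2 CPM in insulin cells and 15.3, 9.07, 2.75 and 3.62 in glucagon cells, lower in each library, with fold changes of -2.09, -3.77 and -2.89 (edgeR adjusted p = 1.37e-09, 3.15e-11 and 1.49e-08). In somatostatin cells it had 6.0, 3.3 and 2.81 CPM and in Pax4 HH HFD no UMI, which allows up to 1.89 CPM, and in polypeptide cells 3.04, 8.27, 0.667 and 1.14. Endothelial cells of WT SCD held 42.0 CPM of Chac1, above the insulin cells of that library. Trib3 (chr2:152337422-152344032, minus strand), a pseudokinase that restrains AKT and ATF4, was the least abundant: 7.81, 5.86, 2.38 and 2.33 CPM in insulin cells and at most 2.03 in any other endocrine group, with endothelial cells above both. It did not pass the filter on low counts and has no test beside the other 8. Sums outside insulin cells held 0 to 8 UMIs of it. DESeq2 gave -3.03, -4.54 and -2.78 (DESeq2 adjusted p = 1.44e-09, 2.13e-08 and 6.48e-05), and edgeR without that filter -3.02, -4.54 and -2.82 (adjusted p = 1.31e-24, 5.46e-26 and 3.85e-11).

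The regulators of mTORC1 and of translation were split. Ddit4 (chr10:59949669-59951834, minus strand) encodes REDD1, an inhibitor of mTORC1, and was at 13.5, 12.8, 43.6 and 38.7 CPM in insulin cells and 4.55, 5.04, 30.1 and 30.4 in glucagon cells. Somatostatin cells held 3.18, 4.76, 25.9 and 32.8 CPM and polypeptide cells 4.56, 3.05, 12.0 and 23.2, so both HFD libraries lay above both SCD libraries in each hormone group. It was lower in all 3 other groups, by -1.36, -1.87 and -1.74 (edgeR adjusted p = 1.16e-07, 1.42e-08 and 4.94e-07). Without the library block the calls in glucagon and polypeptide cells were lost (-1.23 and -1.61, edgeR adjusted p = 0.106 and 0.086). Sesn2 (chr4:132492032-132510501, minus strand), a leucine-binding inhibitor of mTORC1, was at 14.1, 12.2, 14.0 and 11.1 CPM in insulin, 17.4, 12.1, 27.1 and 24.1 in glucagon, 12.0, 12.5, 25.3 and 15.9 in somatostatin and 6.59, 6.96, 16.0 and 13.3 in polypeptide cells, and these ranges overlap. It did not pass the test in glucagon cells (0.02, SE 0.15, edgeR adjusted p = 0.91), where total UMIs as the scale gave 0.61 (adjusted p = 0.0016). It was lower in somatostatin cells (-0.69, SE 0.18, edgeR adjusted p = 0.0021), but on the total UMI scale 0.29 and past no threshold (adjusted p = 0.17). In polypeptide cells it was lower by -0.61 (SE 0.21, edgeR adjusted p = 0.018), a call lost without WT SCD (0.12), without Pax4 HH SCD (0.080), without the library block (0.089) and on total UMIs (0.27). Ppp1r15a (chr7:45522916-45526268, minus strand), the gene for GADD34, was the exception that was higher outside insulin cells. It stood at 101, 99.8, 63.4 and 42.7 CPM in insulin cells, 151, 169, 182 and 156 in glucagon cells, 216, 247, 205 and 159 in somatostatin cells and 134, 174, 216 and 209 in polypeptide cells. Every value of the other groups lay above every insulin cell value, with fold changes of 0.55, 0.48 and 0.99 (SE 0.16, 0.16 and 0.17, edgeR adjusted p = 0.0050, 0.015 and 3.30e-05). Without WT HFD the first and the second missed the threshold (adjusted p = 0.072 and 0.075), as did the second without the library block (0.059). Transcripts of the immediate-early and heat shock response to tissue dissociation were also higher in somatostatin cells (11 of 15 higher, 1 lower) and split in glucagon (3 and 3) and polypeptide cells (5 and 3), or 13 and 1, 8 and 0 and 6 and 0 on total UMIs, where 82.0%, 66.3% and 41.0% of all genes were higher, and their part in the Ppp1r15a difference was not tested.

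Other genes of the pathway from lists of ATF4 targets were mostly lower outside insulin cells. Of 12 tested genes of amino acid supply 10, 10 and 11 were lower in glucagon, somatostatin and polypeptide cells, and 1, 0 and 0 higher. Phgdh, the first enzyme of serine synthesis, differed by -4.64, -4.70 and -4.07 and Aldh1l2, a mitochondrial folate enzyme, by -4.43, -6.51 and -4.23 on the log2 scale. Of 13 aminoacyl-tRNA synthetase and tRNA export genes 12, 13 and 12 were lower and 0 higher, and all 15 genes of the ATF6 and XBP1 arms were lower in each group. On total UMIs these counts were 7, 6 and 9 lower and 3, 3 and 0 higher for amino acid supply, 9, 9 and 11 lower and 1, 1 and 0 higher for the synthetases, and 14, 11 and 13 lower and 0, 2 and 0 higher for the ATF6 and XBP1 arms. Among 7 partner transcription factors 2, 3 and 2 were higher and 3 lower in each group, or 3, 3 and 2 higher and 1, 1 and 2 lower on total UMIs, with Atf5 at -4.17, -3.55 and -3.96, while Atf3 was higher at 3.11, 1.67 and 2.88. Genes of eIF2 kinases and phosphatase control were split (4 higher and 5 lower, 1 and 6, 1 and 4 of 12), as were the other ATF4 or CHOP targets (2 and 4, 0 and 4, 2 and 3 of 7). On total UMIs the eIF2 list had 8 higher and 1 lower, 9 and 1, and 5 and 2 in glucagon, somatostatin and polypeptide cells. The other targets had 3 and 2, 5 and 0, and 2 and 3, where 66.3%, 82.0% and 41.0% of all genes were higher.

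Within insulin cells, Pax4 HH islets had lower levels of Chac1 and Trib3 than WT islets on SCD and little else. The size limit used for all ratios between libraries was 0.32 on the log2 scale in either direction. A 95% interval below covers counting error only, since PCR, pooling and animal variation are outside it. Of the 9 genes 0 were higher past this limit, where 0.507% of 8292 genes were, and 2 were lower, where 3.73% of all genes were. Chac1 went from 35.9 to 24.1 CPM (log2 ratio -0.58, 95% interval -0.68 to -0.47) and Trib3 from 7.81 to 5.86 (-0.41, -0.63 to -0.20). Atf4 and Ddit3 were lower by small amounts, with log2 ratios of -0.19 (-0.23 to -0.15) and -0.15 (-0.19 to -0.12). The median over the 9 genes was -0.15 beside -0.09 over all genes, and scaling by the median of ratios adds 0.09 to every value, which leaves Trib3 at -0.319, just inside the limit, and Chac1 as the 1 lower gene. Asns (-0.02), Nupr1 (0.04), Ddit4 (-0.08), Ppp1r15a (-0.02) and Sesn2 (-0.21) stayed within the limit.

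**Figure D2:**
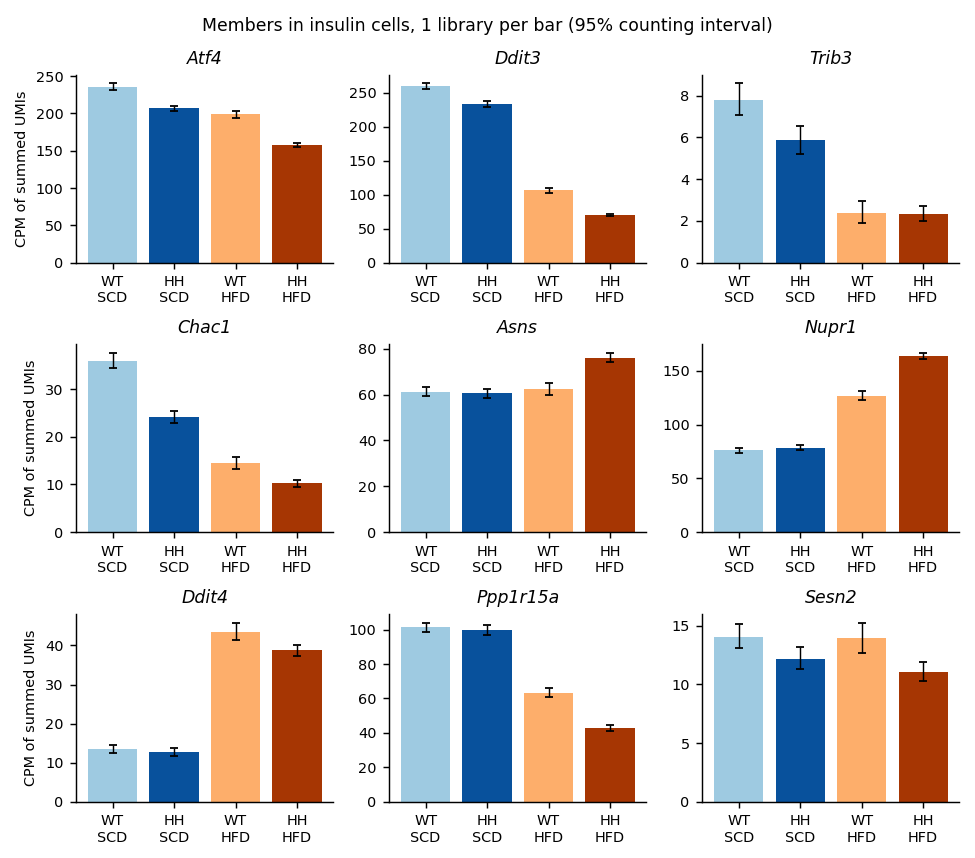
CPM of summed UMIs in insulin cells for each of the 9 genes, 1 bar per library, with bars from 0 and the 95% counting interval. Ddit3 stands at 259, 233, 106 and 69.8 CPM and Nupr1 at 76.3, 78.7, 127 and 164 in the order drawn.

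On HFD more of these genes differed between the genotypes, beside a larger share of all genes. Of the 8 members whose mean reached 5 CPM, 1 was higher in Pax4 HH past the limit (3.00% of 8234 genes) and 5 were lower (15.7% of genes). Ddit3 was lower, at 69.8 against 106 CPM (log2 ratio -0.61, 95% interval -0.67 to -0.54), and so was Ppp1r15a, at 42.7 against 63.4 (-0.57, -0.65 to -0.49). Chac1 was at 10.2 against 14.4 CPM (-0.50, -0.66 to -0.33), Atf4 at 157 against 199 (-0.34, -0.38 to -0.29) and Sesn2 at 11.1 against 14.0 (-0.33, -0.50 to -0.16). The lower genes thus include both transcription factors and the feedback phosphatase gene. Nupr1 was higher, at 164 against 127 CPM (0.36, 0.31 to 0.42), a call lost in cells of 15000 to 35000 UMIs (0.08). Asns was at 76.0 against 62.5 (0.28, 0.21 to 0.36), inside the limit. Ddit4 had a log2 ratio of -0.17 (-0.26 to -0.08), and Trib3, at 2.33 and 2.38 CPM, was too low to be counted. The median over the 8 genes was -0.33 beside -0.14 over all genes. Scaling by the median of ratios adds 0.13 to every value, which leaves Atf4 at -0.21 and Sesn2 at -0.20 inside the limit, so that 3 genes were lower and 2, Nupr1 at 0.50 and Asns at 0.41, were higher.

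**Figure D3:**
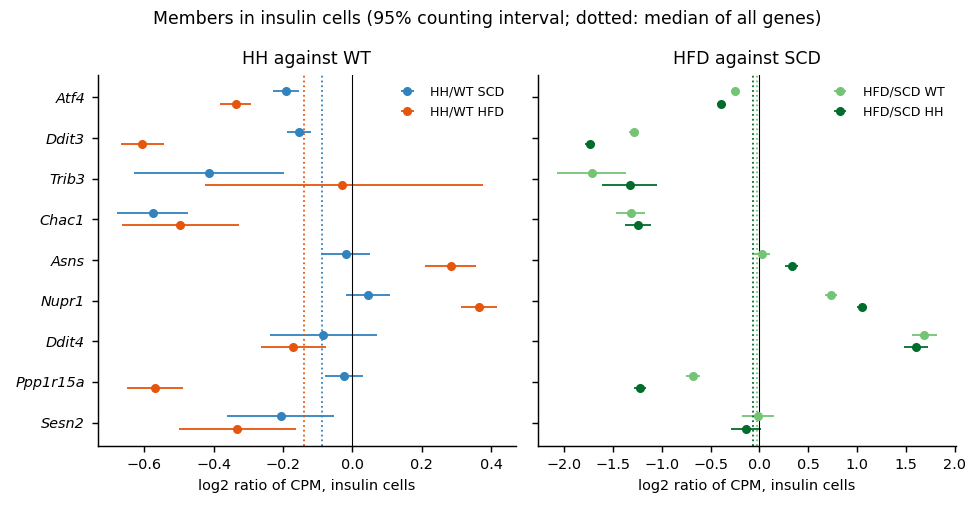
Log2 ratio of CPM in insulin cells for each gene, Pax4 HH over WT within each diet (left) and HFD over SCD within each genotype (right), with 95% counting intervals and, dotted, the median of all genes. Ddit3 lies at -0.15 on SCD and -0.61 on HFD between genotypes, and at -1.29 and -1.74 between diets.

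The stress genes that were lower in Pax4 HH HFD moved with another set of transcripts. All 15 genes of the dissociation response had ratios below 0 in insulin cells, 14 of them past the limit, with a median of -0.70, and Hspa1a, a heat shock gene, stood at 56.8 against 192 CPM (-1.76). On SCD the same list had a median of -0.09, with 2 genes higher and 1 lower past the limit. The partner transcription factors on HFD had a median of -0.54, 5 of 6 lower past the limit, among them Atf3 at 18.4 against 32.0 CPM (-0.80), Jun at 384 against 652 (-0.76) and Atf5 at 104 against 141 (-0.44). Fos and Jun stand in both lists. Median mitochondrial share of insulin cells was 4.00% in Pax4 HH HFD and 4.90% in WT HFD, and median depth 24201 and 29828.5 UMIs. Markers of β cell identity other than Iapp were lower in the same comparison, with Mafa at 195 against 312 CPM, Slc2a2 at 154 against 302, Ucn3 at 211 against 283, Nkx6-1 at 188 against 252 and Pdx1 at 83.5 against 104, while Iapp stood at 60162 against 41644 and Ttr, an α cell marker, at 2739 against 1342. The part of dissociation, mitochondrial share, depth and these markers in the Ddit3, Ppp1r15a and other differences between the genotypes on HFD was not tested.

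Other lists of the stress response had medians on both sides of that of all genes (-0.14). Genes of amino acid supply had a median of 0.02 on HFD, with 1 of 10 higher and 1 lower past the limit: Phgdh was at 35.4 against 27.8 CPM (0.35) and Slc38a2, a glutamine transporter gene, at 49.6 against 69.1 (-0.48). The synthetases had a median of -0.10 with 0 of 13 past the limit in either direction. Genes of the ATF6 and XBP1 arms, which encode chaperones and folding factors of the endoplasmic reticulum, had a median of 0.31, with 6 of 15 higher and 1 lower. Creld2 stood at 189 against 85.9 CPM (1.14) and Sdf2l1 at 413 against 250 (0.72), and Syvn1, the lower one, at 22.3 against 28.5 (-0.35). Medians were -0.12 for eIF2 kinases and phosphatase control (0 of 11 higher and 1 lower) and -0.19 for the other ATF4 or CHOP targets (0 of 6 and 1, Bbc3 at -0.37). On SCD all of these lists had medians between -0.20 and 0.07.

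Glucagon cells of the same libraries held Ddit3 on HFD at 70.3 CPM in Pax4 HH against 68.2 in WT (log2 ratio 0.04, 95% interval -0.19 to 0.27), and the difference between cell groups was not tested. Somatostatin cells stood at 25.6 against 41.6 CPM (-0.70, -1.25 to -0.16) and polypeptide cells at 41.0 against 54.1 (-0.40, -0.83 to 0.03). For Atf4 the ratios were -0.03 in glucagon, -0.43 (-0.68 to -0.18) in somatostatin and 0.04 in polypeptide cells. Ppp1r15a was at -0.22 (-0.37 to -0.07), -0.36 (-0.59 to -0.14) and -0.05 (-0.25 to 0.16). The median dissociation list ratio was 0.01 in glucagon cells, beside -0.70 in insulin cells. On SCD the ratios of Ddit3 were 0.03, 0.03 and -0.05, each with an interval that spans 0, and Chac1 in glucagon cells was at 9.07 against 15.3 CPM (-0.76, -1.32 to -0.20).

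Between the diet groups the ratios in insulin cells reached further from 0 than between the genotypes, in both directions. In WT, 2 of 9 genes were higher on HFD past the limit (8.10% of 8436 genes) and 4 lower (13.4%). In Pax4 HH, 3 of 8 were higher (8.22% of 8173 genes) and 4 lower (18.1%). Ddit3 had log2 ratios of HFD over SCD of -1.29 (95% interval -1.34 to -1.23) in WT and -1.74 (-1.79 to -1.69) in Pax4 HH. Chac1 had -1.32 (-1.47 to -1.17) and -1.24 (-1.37 to -1.11), Trib3 -1.71 (-2.08 to -1.37) and -1.33 (-1.61 to -1.05), and Ppp1r15a -0.68 (-0.75 to -0.61) and -1.22 (-1.29 to -1.16). Ddit4 went the other way, with 1.69 (1.56 to 1.82) and 1.60 (1.48 to 1.73), and Nupr1 with 0.74 (0.67 to 0.80) and 1.06 (1.0 to 1.11). Asns was at 0.03 and 0.33, Atf4 at -0.25 and -0.39 and Sesn2 at -0.01 and -0.14. Medians over all genes were -0.03 in WT and -0.07 in Pax4 HH.

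Related stress genes lay on both sides as well. Atf3 stood at 32.0 against 104 CPM in WT (-1.70) and 18.4 against 112 in Pax4 HH (-2.61), Herpud1, which takes part in degradation at the endoplasmic reticulum, at 206 against 454 (-1.14) and 186 against 443 (-1.25), and Gadd45a at -0.94 and -0.80. Hspa5, the gene for the chaperone BiP, had -0.81 and -0.80, while Creld2 had 0.13 in WT and 1.08 in Pax4 HH. Amino acid supply had medians of -0.08 and 0.06, the synthetases 0.04 and -0.02, and the other ATF4 or CHOP targets -0.36 (0 of 7 higher and 4 lower) and -0.26 (0 of 6 and 2). The dissociation list had medians of -0.24 in WT (1 higher and 7 lower of 15) and -1.14 in Pax4 HH (0 and 12), and its part in the diet differences was not tested.

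Ddit4 differed by diet in all endocrine groups. Log2 ratios of HFD over SCD in WT were 2.72 (95% interval 2.07 to 3.45) in glucagon, 3.03 (1.98 to 4.24) in somatostatin and 1.40 (0.17 to 2.73) in polypeptide cells, and in Pax4 HH they were 2.60 (1.98 to 3.27), 2.78 (1.91 to 3.77) and 2.93 (1.80 to 4.30). Endothelial cells of the same libraries had the opposite direction, 41.3 against 189 CPM in WT (-2.20, -2.68 to -1.73) and 45.7 against 217 in Pax4 HH (-2.24, -2.67 to -1.83). The endothelial groups held 88 to 215 cells, and β cell markers summed to 3395, 953, 1740 and 14723 CPM in them. Sesn2 in glucagon cells was higher on HFD, 0.64 (0.22 to 1.06) in WT and 0.99 (0.53 to 1.47) in Pax4 HH, and in endothelial cells lower, -2.85 (-4.40 to -1.59) and -1.59 (-2.65 to -0.53). Ppp1r15a was lower in insulin cells, at 0.27 and -0.11 in glucagon, -0.08 and -0.63 in somatostatin and 0.69 and 0.27 in polypeptide cells. The dissociation list in glucagon cells had medians of 1.07 in WT and 0.97 in Pax4 HH, opposite in sign to the insulin cells, and its part was not tested. Ddit3 in glucagon cells differed little, with -0.26 (-0.48 to -0.04) and -0.25 (-0.46 to -0.04). In somatostatin cells it was lower, at -0.74 (-1.15 to -0.35) in WT and -1.47 (-1.95 to -1.02) in Pax4 HH. Polypeptide cells had -0.03 (-0.46 to 0.40) and -0.39 (-0.77 to -0.0003). Endothelial cells held 25.3 against 132 CPM in WT and 45.7 against 51.6 in Pax4 HH.

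**Figure D4:**
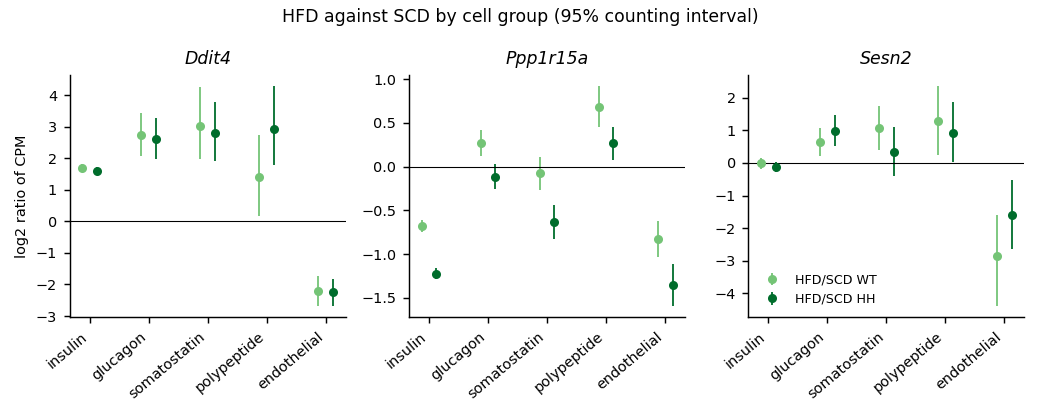
Log2 ratio of HFD over SCD for Ddit4, Ppp1r15a and Sesn2 by cell group in WT and Pax4 HH, 1 library per diet and genotype, with 95% counting intervals. Ddit4 lies between 1.40 and 3.03 in the 4 endocrine groups and at -2.20 and -2.24 in endothelial cells.

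Shares of cells gave the same order for Ddit3. With each cell thinned to 3000 UMIs, 48.8% of insulin cells in WT SCD, 44.0% in Pax4 HH SCD, 25.3% in WT HFD and 18.2% in Pax4 HH HFD held a Ddit3 UMI, against 36.4%, 15.9%, 5.48% and 7.91% of endothelial cells. The difference of Pax4 HH from WT, 1 library each, was -4.82 percentage points on SCD and -7.11 on HFD. On SCD it was -0.40 in cells thinned to 10000 UMIs and 0.010 without thinning, and on HFD -12.9 and -17.2. Without thinning the shares were 95.8%, 95.8%, 84.4% and 67.2% at median depths of 26385, 26207, 29828.5 and 24201 UMIs, and 55.0%, 26.1%, 17.1% and 24.2% of endothelial cells at 6148, 5790, 7127 and 6381 UMIs. Nupr1 was found in 15.1%, 15.4%, 23.4% and 27.5% of thinned insulin cells and in 0.45% to 1.35% of glucagon cells. Trib3 was in 2.04%, 1.83%, 0.36% and 0.46% of insulin cells, below the endothelial shares of 3.10%, 5.68%, 2.05% and 4.19% in each library. Endothelial cells held more Trib3 per total UMIs, at 8.43 to 17.2 CPM, and are no reference for cells that lack it. In glucagon cells the highest share was 0.45%, 2 of 440 cells in Pax4 HH SCD. Cells with 2 or more of the 8 genes other than Atf4 made up 36.1%, 32.7%, 26.7% and 24.6% of insulin cells.

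Nupr1 moved with the mitochondrial share of the cell, and median depth moved with it. Among insulin barcodes with under 4% mitochondrial UMIs it stood at 24.4, 25.0, 69.7 and 124 CPM in WT SCD, Pax4 HH SCD, WT HFD and Pax4 HH HFD, and at 10% to 20% it stood at 158, 176, 228 and 353. Median depth in the first of these bins was 31414, 30709, 33432 and 27322 UMIs and in the second 17779, 16215, 16086 and 10520, and its part in the Nupr1 values was not tested. Barcodes at 20% or more had 54.9, 46.3, 99.2 and 138 CPM. Within each bin the 2 HFD libraries lay above the 2 SCD libraries. In cells under 5% the ratio of Pax4 HH to WT on HFD was 0.69 in place of 0.36, and in cells of 15000 to 35000 UMIs it was 0.08, so its size rests on the cells compared. The HFD over SCD ratio under 5% was 1.24 in WT and 2.11 in Pax4 HH. Ddit3 rose with this share on HFD but not on SCD. On HFD it went from 109 CPM under 4% to 145 at 10% to 20% in WT, and from 62.7 to 93.6 in Pax4 HH. On SCD it went from 279 to 243 in WT and from 231 to 235 in Pax4 HH between the same bins. At 20% or more it was at 224, 204, 242 and 164 CPM in WT SCD, Pax4 HH SCD, WT HFD and Pax4 HH HFD. The highest bin held 88 to 340 barcodes per library, with median depths of 3763.5 to 4672 UMIs. Asns stood at 49.9, 56.6, 54.1 and 75.2 CPM under 4% and at 72.8, 65.3, 67.0 and 76.1 at 10% to 20%. Sesn2 stood at 11.8, 9.41, 10.5 and 10.3 CPM and at 21.9, 20.6, 13.9 and 22.7 in these bins, in the same library order.

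**Figure D5:**
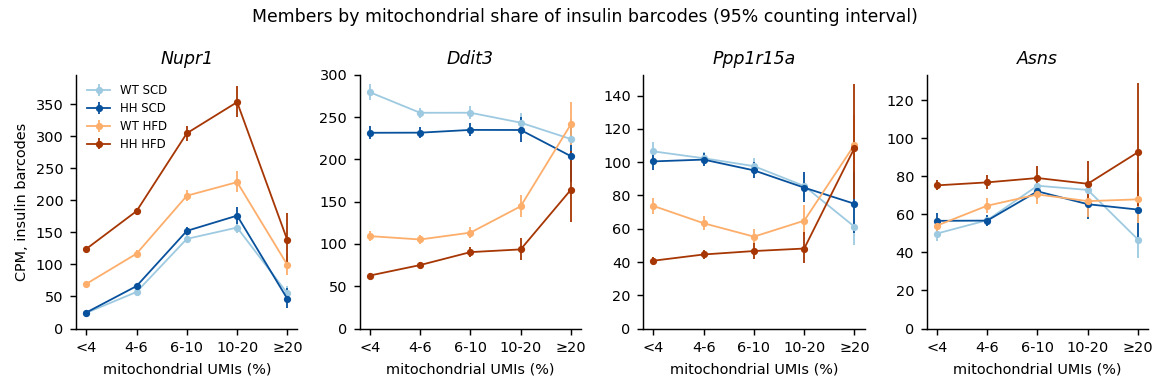
CPM of Nupr1, Ddit3, Ppp1r15a and Asns in insulin barcodes by bin of mitochondrial UMI share (percent), 1 line per library with 95% counting intervals. Nupr1 goes from 24.4 to 158 CPM in WT SCD and from 124 to 353 in Pax4 HH HFD between under 4% and the bin of 10 to 20%, and is lower again at 20% or more.

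Pairs of these genes were counted in the same insulin cells, thinned to 10000 UMIs, and the shared cells set against the number their single shares give. Of 36 pairs, 18 had a ratio of observed to expected above 1 in all 4 libraries, some of them barely, such as Asns with Ddit4 at 1.0011 in 1 library. With a counting interval on the shared cells, which is wide for genes found in most cells, 1 pair, Asns with Nupr1, lay clear of 1 in all 4 libraries and 26 pairs in none. The ratio was 1.11 to 1.38 for Asns with Nupr1, 1.09 to 1.48 for Chac1 with Nupr1, 1.10 to 1.46 for Nupr1 with Sesn2 and 1.22 to 1.78 for Trib3 with Nupr1. Trib3 with Chac1 had 1.23 to 3.13, the highest from 21 shared cells in Pax4 HH HFD. These ratios are a description, with no test over cells, and pairs of other genes were not counted. Levels of Asns, Nupr1 and Sesn2 also differed by mitochondrial share, whose part in their pairs was not tested. For genes found in most cells, such as Atf4 and Ddit3 on SCD, the ratio cannot move far above 1, so it says little of them. Insulin cells with a Ddit3 UMI were compared with those without (1668 and 341, 1626 and 342, 646 and 472, 1253 and 1540 cells at this depth). Of 6063 genes of at least 10 CPM 1, the interferon-induced Rsad2, was higher past the limit in all 4 libraries, which is 0.0165%, and 2 were lower. Of the other 8 members 0 were higher, and of these Trib3, at 4.61 CPM, was not among the 6063. Chac1 came to log2 ratios of 0.29, 0.08, 0.53 and 0.78. The next genes in that order were Nr4a1, Aldh1l2, Gm42941, Klf4, Gm17767, 1810013L24Rik, Plk3, Pex11g and Farsa. The order depended on depth: at 3000 UMIs it was led by Smpd2, Dap3 and Adck5, none of these 10 genes was among the first 40, and Chac1 came to -0.07, -0.40, 0.45 and 0.81. The split uses the Ddit3 count itself, so these values are a description.

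After thinning to 3000 UMIs, insulin cells without a Mafa UMI and with a UMI of Gc, Aldh1a3 or Serpina7 numbered 69, 92, 75 and 635 in the 4 libraries. At full depth cells of this set can hold Mafa UMIs, and their levels below use all their UMIs. Mafa is a transcription factor of mature β cells and the other genes mark immature or α-like states. Nupr1 was higher in them than in the other insulin cells in WT SCD, Pax4 HH SCD and WT HFD, with log2 ratios of 0.77, 0.47 and 0.61, and in Pax4 HH HFD it stood at 0.06, inside the limit. Asns came to 0.38 (0.13 to 0.62), 0.36 (0.14 to 0.58), -0.02 and 0.13 in the 4 libraries. Chac1 came to 0.19, 0.55 (0.22 to 0.87), 0.30 and -0.09. In Pax4 HH HFD, where these cells were most numerous, they held Ddit3 at 48.5 CPM against 76.8 in the rest (-0.66) and Ppp1r15a was lower (-0.37). In WT SCD, Pax4 HH SCD and WT HFD the Ddit3 ratios were 0.00, -0.17 and -0.17, of which the interval of the second lay clear of 0, and the Ppp1r15a intervals spanned 0. Without them Ddit3 differed between the genotypes on HFD by -0.48, in place of -0.61, and 3 genes, in place of 5, were lower past the limit. That setting was added after the data were seen.

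Across the 16 sums of library and hormone group, the 4692 genes that averaged at least 20 CPM were ranked by the Pearson correlation of log2(CPM + 1). The sums share libraries and most of the spread lies between insulin cells and the others, so these values are a description. Of the ranked genes, those nearest to Ddit3 were Itgav (0.87), Fdps (0.86), Syt4 (0.85), Noct (0.84) and Hspa5 (0.83). Nearest to Trib3 were Ddit3 (0.88), Mafa (0.87), Cox6a2 (0.86), Syt4 (0.85) and Tmem163 (0.84). Among the members, Ddit3 correlated with Trib3 at 0.88, Chac1 at 0.87, Asns and Atf4 at 0.71 and Nupr1 at 0.52. With Sesn2 it was at -0.07, with Ddit4 at -0.10 and with Ppp1r15a at -0.44. Trib3 and Chac1 averaged under 20 CPM and so were not ranked against Ddit3.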

How the data were processed

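Islet cells of 4 groups were measured, with 1 library per group. The authors aligned reads with Cell Ranger 6.0 to mm10 and deposited raw UMI counts for each gene in each barcode. Per the file headers these deposited counts are filtered Cell Ranger matrices, before correction for free RNA or doublet removal. Cells were kept at under 10% mitochondrial UMIs, 3000 to 50000 UMIs and 2000 to 5000 genes. Scrublet (scanpy 1.11.5) marked 7 to 46 cells per library by its automatic threshold, so the highest scores up to the expected number (0.8% per 1000 cells) were removed instead, 33 to 154 cells or 1.62% to 3.51%. A hormone group needed 5% of UMIs and 70% of hormone UMIs from its hormone, and fewer than 3 genes of each endothelial, leukocyte and stromal list. Members and lists were chosen with earlier results of these data known. All 9 members are named. From lists, genes among the 2 highest and 2 lowest were named when past the test, or past a log2 ratio of 0.32 with an interval clear of 0, and their values may stand beside in comparisons where they did not qualify. The 10 genes ranked by cells with a Ddit3 UMI and the 5 nearest to Ddit3 and Trib3 followed fixed rules.

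UMI sums per library and hormone group were tested with edgeR 4.0.16 (R 4.3.3; filterByExpr, TMM, library block, Benjamini-Hochberg over 11819 genes, threshold 0.05), with DESeq2 1.42.0 as an alternative. In simulated polypeptide against insulin sums (10622 genes), 63% of genes changed 1.5-fold and 92% of those changed 2-fold were found, and 4.32% of calls were false. The simulation changed 200 genes, as many up as down, with the same spread for all genes. Its rates were not checked for the far larger share of genes called in the real contrasts. The 4 libraries served as replicates there and differ in genotype and diet. The contrasts within a diet and within a genotype have 1 library on each side, and no test was made between libraries. Log2 ratios of CPM carry exact conditional 95% intervals, and a gene counted as past the limit at 0.32 or more in size, given a mean of at least 5 CPM. Shares carry exact Clopper-Pearson intervals. A UMI sum of 0 was set to 3 counts for ratios.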

Additional observations from a re-analysis of the deposited data

Results flagged for a closer look

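Among the 21 sets of 4 libraries checked for a single value far from the rest, 0 had one. The values below are pairs of log2 ratios that lie on opposite sides of 0 with counting intervals clear of it. Each ratio compares 1 library with 1 other, so none of the 29 differences between ratios was tested, and β cell markers in endothelial cells ranged from 953 to 14723 CPM.

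Ddit4 between the diets was higher in the endocrine groups and lower in endothelial cells. In WT it stood at 1.69 in insulin, 2.72 in glucagon, 3.03 in somatostatin and 1.40 in polypeptide cells against -2.20 in endothelial cells. In Pax4 HH it stood at 1.60, 2.60, 2.78 and 2.93 against -2.24. Between the genotypes on HFD, Ddit4 was at -0.17 in insulin and 0.95 in polypeptide cells.

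Sesn2 between the diets in WT was at 0.64 in glucagon, 1.08 in somatostatin and 1.28 in polypeptide cells against -2.85 in endothelial cells, and in Pax4 HH at 0.99 in glucagon and 0.93 in polypeptide against -1.59 in endothelial cells.

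Ppp1r15a between the diets in WT was at -0.68 in insulin and -0.83 in endothelial cells against 0.27 in glucagon and 0.69 in polypeptide cells. In Pax4 HH it was at -1.22 in insulin, -0.63 in somatostatin and -1.35 in endothelial cells against 0.27 in polypeptide cells. Between the genotypes it was at 0.17 on SCD and -0.22 on HFD in glucagon cells, and at 0.19 and -0.36 in somatostatin cells.

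Ddit3 between the genotypes in endothelial cells was at -1.36 on SCD and 0.85 on HFD, and on HFD insulin cells stood at -0.61 and somatostatin cells at -0.70. Chac1 between the genotypes on SCD was at -0.58 in insulin, -0.76 in glucagon and -1.15 in endothelial cells against 1.44 in polypeptide cells, which number 108 and 138.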

How the results depend on the processing

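Leave-one-out was not possible between genotypes or diets, and no paired analysis was possible because each group has 1 library. Of 1083 values under alternatives, 974 were classed as the same, 92 as moved, 9 as weaker, 1 as stronger and 7 as reversed. The class of the same is not a count of kept signs or of kept sides of the limit. In insulin cells on SCD, the log2 ratio of Pax4 HH over WT for Ddit4 ranged from -0.092 to 0.011 over the alternatives. For Trib3 it ranged from -0.62 to -0.319, the last just inside the limit. The diet alternatives, the setting without the cells that had no Mafa UMI after thinning and the total UMI scale were added after the data were seen. The causes were not tested unless the alternative itself shows them.

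On SCD the 2 lower members became 1 by the median of ratios and 0 at 1.5-fold. On HFD the count higher (1) became 2 under 5% mitochondrial UMIs and by the median of ratios, and 0 at 15000 to 35000 UMIs and at 1.5-fold. The 5 lower became 3 without hormone and mitochondrial genes in the total and by the median of ratios. They also became 3 without the cells that had no Mafa UMI after thinning, and 1 at 1.5-fold. The member median on HFD of -0.33 became -0.20 by the median of ratios. Between diets the member median in WT (-0.25) became -0.086 under 5% mitochondrial UMIs, -0.12 by the median of ratios and -0.13 without the 1% of cells with most UMIs of a gene, and in Pax4 HH (-0.27) -0.12 under 5% and -0.39 without hormone and mitochondrial genes. These medians take the genes that reach a mean of 5 CPM in each setting, so the set can differ. Trib3 lay near that mean in WT, at 7.81 and 2.38 CPM. In WT the median of ratios adds 0.013 to every ratio, too little alone to give -0.12.

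Between hormone groups on total UMIs, glucagon calls became 7833 higher and 1337 lower with 3 members higher, somatostatin calls 9688 and 668, and polypeptide calls 4844 and 1742. Atf4 in glucagon cells turned to 0.19 and Sesn2 in somatostatin cells to 0.29. Sesn2 in glucagon cells, 0.02 and past no threshold, turned to -0.028 without the gene filter, -0.0048 with the looser cell filter, and -0.11 without WT HFD, and ranged from -0.13 to 0.22 when each library was left out. Leaving out a library gave 0 to 1 members higher in glucagon and in somatostatin cells, 0 without WT HFD, and without the library block the somatostatin count was 0.

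The Ddit3 share difference on SCD (-4.82 points) was -0.40 at 10000 UMIs and 0.010 without thinning, where most cells hold a UMI, and on HFD (-7.11) -12.9 and -17.2. For 2 or more of the 8 genes on SCD it was -0.091 without thinning.

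By the median of ratios the list medians on SCD became -0.082 for amino acid supply, 0.15 for partner factors, 0.17 for the ATF6 and XBP1 arms, -0.11 for glucocorticoid targets and 0.0055 for dissociation, and on HFD 0.031 for synthetases, -0.41 for partner factors, 0.0085 for eIF2 control, -0.057 for other targets, 0.44 for the ATF6 and XBP1 arms, -0.11 for glucocorticoid targets and -0.57 for dissociation.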

Other observations

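Stromal cells carried more Nupr1 than insulin cells in each library, with 414, 317, 224 and 377 CPM in WT SCD, Pax4 HH SCD, WT HFD and Pax4 HH HFD, from groups of 45, 16, 45 and 101 cells. Endothelial cells held Atf4 at 850, 815, 376 and 286 CPM, Ppp1r15a at 492, 458, 277 and 179 and Trib3 at 16.1, 17.2, 8.43 and 10.9, each above the insulin cells of the same library. These are levels of 1 library each and were not tested.

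Lists of targets of other stress factors had medians below that of all genes between the diets in insulin cells. Trp53inp1, a p53 target, stood at 31.1 against 67.9 CPM in WT (log2 ratio -1.13) and at 30.2 against 65.9 in Pax4 HH (-1.13), and Per1, a clock gene that glucocorticoids induce, at 29.8 against 46.1 (-0.63) and 22.4 against 42.2 (-0.92). The hypoxia target Ankrd37 was at 8.42 against 16.8 CPM (-1.0) and 7.61 against 15.8 (-1.05). List medians in WT and Pax4 HH were -0.11 and -0.16 for p53 targets, -0.38 and -0.28 for hypoxia targets and -0.53 and -0.56 for glucocorticoid targets, beside -0.03 and -0.07 over all genes. Between the genotypes on HFD these lists had medians of -0.12, -0.15 and -0.24, and on SCD -0.09, -0.14 and -0.21, beside -0.14 and -0.09 over all genes. Vegfa, a hypoxia target and angiogenic factor gene, stood at 101 against 137 CPM on HFD (-0.44). Between hormone groups 5, 1 and 4 of 7 p53 targets were higher in glucagon, somatostatin and polypeptide cells and 0, 3 and 1 lower, while of 6 hypoxia targets 1, 0 and 0 were higher and 2, 4 and 2 lower, and of 6 glucocorticoid targets 2, 0 and 3 were higher and 1, 2 and 2 lower, by edgeR's test on the TMM scale, where 29.2%, 29.4% and 24.2% of all genes were higher and 31.4%, 30.2% and 27.4% lower. On total UMIs, where 66.3%, 82.0% and 41.0% of all genes were higher, the counts were 7, 5 and 4 higher and 0, 0 and 1 lower, 3, 5 and 0 higher and 0, 0 and 1 lower, and 4, 4 and 3 higher and 0, 0 and 2 lower.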
